A study of Mus musculus with 25 samples.

Results

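The genes described here are 9 enzymes of methionine, transsulfuration and folate one-carbon metabolism: Mat1a, Gnmt, Ahcy, Bhmt, Cbs, Cth, Pemt, Shmt1 and Aldh1l1. They were taken from the deposited count table by gene symbol and are 9 of its 37085 symbols. The set was chosen with earlier results of these data known, so its counts beside those of all genes are descriptions. All 9 passed the filter on low counts and were tested together with the rest of 11869 genes. The study followed hepatocytes of C57BL/6 mice over 6 weeks of a diet that induces nonalcoholic steatohepatitis (NASH), a fatty and inflamed state of the liver. The libraries form 7 groups: 5 from mice on normal diet, labelled as 0 weeks on the NASH diet, and 4, 3, 4, 3, 3 and 3 from mice fed the NASH diet for 1, 2, 3, 4, 5 and 6 weeks. No genetic change or drug is labelled in any group, and neither the composition of the diets nor how old the mice were is stated in the labels. Livers were perfused with collagenase, the heavy cells were pelleted at low speed and sorted by flow cytometry, and polyadenylated RNA of the sorted cells was sequenced from its 3′ ends. Libraries of a group carry numbers, but the labels do not tie each number to its own animal. P-values here therefore measure the spread between libraries, which may be in part technical. The 6 weekly comparisons share the same 5 normal-diet libraries, and a normal-diet group for each week was not analysed here, so that age and weeks of diet cannot be told apart.

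Hepatocytes turn methionine into S-adenosylmethionine, the methyl donor of the cell, through the enzyme that Mat1a encodes. Methyltransferases such as Gnmt, which methylates glycine, and Pemt, which makes phosphatidylcholine from phosphatidylethanolamine, leave S-adenosylhomocysteine, and Ahcy splits this to homocysteine. Homocysteine is either methylated back to methionine, by Bhmt with betaine as the donor, or passed by Cbs and then Cth to cysteine in the transsulfuration pathway. Folate carries the one-carbon units: Shmt1 moves such a unit from serine to tetrahydrofolate, and Aldh1l1 oxidises 10-formyltetrahydrofolate, which releases the unit as carbon dioxide. Mice that lack Mat1a or Gnmt are known to develop fatty liver disease.

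Promoter sequence was at hand for 7 of the 9 genes, as the 250 bases before the start site in RefSeq (mouse build GRCm38.p6; the reads themselves were aligned to GRCm39, per the submitters' processing notes). These 7 genes have 8 windows, since Pemt has 2 start sites. The letters CCAAT, on either strand, were found in a window of each gene (Gnmt, Aldh1l1, Bhmt, Cbs, Shmt1, Ahcy and Pemt). Of 32851 mouse promoters of the same length, counted 1 by 1, 33.8% hold them. In Gnmt, Aldh1l1, Bhmt, Cbs and Shmt1 a copy lay on the strand opposite to the gene, so that the printed strand reads ATTGG, and began 47 to 63 bases before the start site. The windows of Gnmt and Aldh1l1, the 2 of these 7 genes called lower at week 1, are shown whole; capitals mark CCAAT in either orientation and, in Gnmt, a match to the sterol response element TCACNCCAC, which 1.05% of promoters hold.
Gnmt, chr17:46729166-46729415, minus strand: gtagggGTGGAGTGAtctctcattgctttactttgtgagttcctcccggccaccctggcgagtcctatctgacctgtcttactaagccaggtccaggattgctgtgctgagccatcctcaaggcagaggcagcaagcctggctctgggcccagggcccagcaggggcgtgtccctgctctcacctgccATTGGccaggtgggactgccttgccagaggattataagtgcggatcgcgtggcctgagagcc
Aldh1l1, chr6:90550543-90550792, plus strand: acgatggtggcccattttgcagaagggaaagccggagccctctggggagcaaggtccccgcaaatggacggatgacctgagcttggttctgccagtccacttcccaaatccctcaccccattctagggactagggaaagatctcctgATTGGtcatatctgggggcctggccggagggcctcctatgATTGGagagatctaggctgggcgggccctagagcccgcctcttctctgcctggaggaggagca
The last 70 bases before the start sites of Bhmt, Cbs and Shmt1 hold the same letters, and Cbs holds them in both orientations.
Bhmt, chr13:93637759-93637828, minus strand: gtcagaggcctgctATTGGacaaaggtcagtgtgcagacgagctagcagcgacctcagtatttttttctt
Cbs, chr17:31637206-31637275, minus strand: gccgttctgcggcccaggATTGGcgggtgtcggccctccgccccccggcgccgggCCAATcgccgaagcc
Shmt1, chr11:60811266-60811335, minus strand: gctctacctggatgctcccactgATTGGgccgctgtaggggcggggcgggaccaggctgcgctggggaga
In Ahcy and in 1 of 2 start sites of Pemt the match lay farther out, at 237 to 233 and 248 to 244 bases before the start. The window of the other Pemt start site held no CCAAT. For that other site the bases just after the start were found in 1 annotated transcript, and for the site with the match in 0. TATAAA, TGATGNAA, TGACNNNGC and CAAAGTCCA, searched on both strands as the TATA box, the C/EBP-ATF composite element, the antioxidant response element core and the HNF4 element, were not among the letters of these windows; 12.4%, 3.45%, 10.2% and 0.384% of promoters hold them. A match of letters is a description and not a binding site.

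Library totals ran from 5281140 to 10015800 counts, and levels below are given as CPM, counts scaled to a common library size after correction for composition. Hepatocyte markers were present in every library: the summed level of 8 hepatocyte markers (Alb, Apoa1, Ttr, Apob, Cps1, Hnf4a, Serpina1c and Asgr1) was 95200 to 104386 CPM on normal diet. After 1, 2 and 3 weeks it was 76926 to 85181, 78609 to 100460 and 70438 to 91646 CPM, and after 4, 5 and 6 weeks 86590 to 95416, 70517 to 79052 and 75397 to 79196. Weeks 2 and 4 overlapped normal diet, and the lowest library was of week 3. Markers of several other liver cell types moved with time on the diet. The mean log2 CPM of 30 Kupffer, endothelial and stellate cell markers was 2.66 to 4.48 on normal diet, 3.72 to 4.89 at week 1, 3.98 to 5.33 at week 2, 4.09 to 4.95 at week 3, 4.66 to 5.69 at week 4, 6.09 to 6.38 at week 5 and 5.79 to 6.13 at week 6, and normal-diet libraries 1 and 5 were the lowest of all at 3.07 and 2.66. Of the 10 markers of each type, 1 Kupffer, 5 endothelial and 9 stellate cell markers were called higher at week 4, all 30 at week 5, and all but 1 Kupffer cell marker at week 6. Of 9 monocyte and macrophage markers, 8 were called higher at week 5 and 9 at week 6. Of all tested genes 19.1% were called higher at week 5 and 16.3% at week 6. At week 4, 983 of 11869 tested genes were called in either direction, 339 of them lower. Of 2 cholangiocyte markers tested, 1 was called higher at each of weeks 4, 5 and 6, and 1 was called lower at week 4. None of 4 erythroid markers was called at any week. No Kupffer or endothelial marker was at 0 in any library, and the stellate markers Col1a1 and Pdgfrb were at 0 in 1 library each. Bulk libraries do not tell fewer cells of a type from less RNA per cell.

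**Figure D1:**
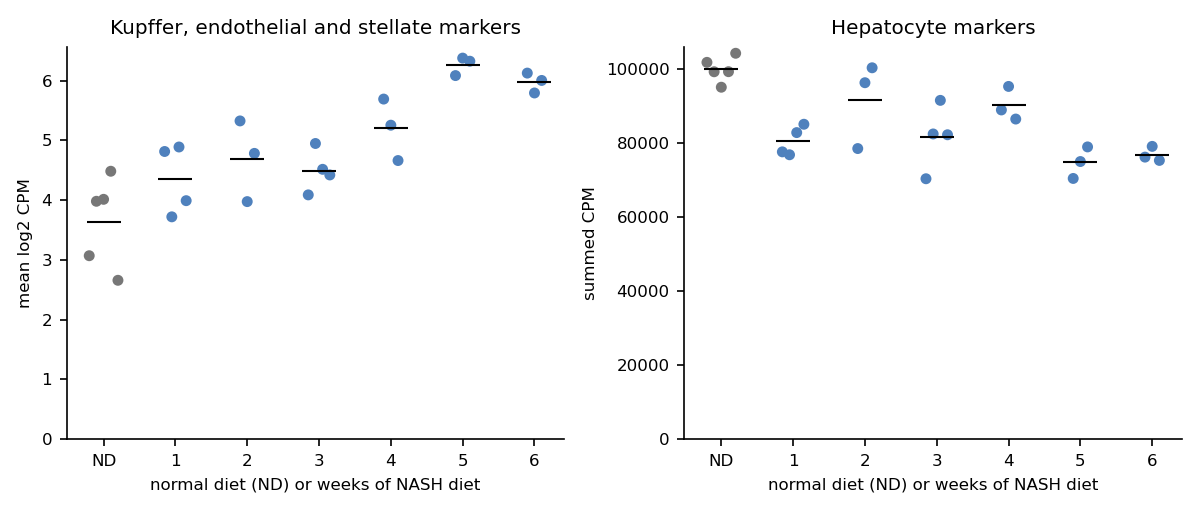
Level of other-cell and hepatocyte markers in each library. Left, mean log2 CPM of 30 Kupffer, endothelial and stellate cell markers; right, summed CPM of 8 hepatocyte markers; the x axis gives normal diet (ND) and weeks of NASH diet, points are libraries and lines are group means. The libraries of weeks 4, 5 and 6 lie above every normal-diet library on the left. Those of weeks 1, 3, 5 and 6 lie below every one on the right.

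All 9 enzymes had lower fitted levels than on normal diet at each of the 6 weeks with TMM scaling (edgeR's correction for composition). With total counts as the only scaling Mat1a, Bhmt and Shmt1 stood above 0 at week 4 and Mat1a at week 5, and scaled to the hepatocyte markers so did Bhmt at week 3, Mat1a, Bhmt and Shmt1 at week 4, Mat1a and Shmt1 at week 5, and Mat1a, Cbs and Shmt1 at week 6. A gene was called where its adjusted p from edgeR's quasi-likelihood test was under 0.05 over all tested genes. At week 1, 4 of 9 were called lower, against 0.977% of all tested genes: Mat1a, Gnmt, Cth and Aldh1l1. Fewer were called at weeks 2 to 4: 2 at week 2 (Cth and Aldh1l1, background 0.657%), the same 2 at week 3 (background 0.607%) and Aldh1l1 at week 4 (background 2.86%). Week 5 had 8 of 9 called lower, all but Mat1a, where 16.3% of tested genes were. Week 6 had 6 of 9 (Gnmt, Ahcy, Bhmt, Cth, Pemt and Aldh1l1), where the share of tested genes was 10.5%. Over the mean of the 6 weeks, 8 of 9 were called lower, all but Shmt1, against 8.87% of tested genes. Without normal-diet library 5 that count was 5, with Mat1a, Ahcy and Bhmt no longer called, and without libraries 1 and 5 it was 4. It was 4 with total counts as the only scaling, 3 scaled to the hepatocyte markers, and 0 with the marker score described below as a term, where 4 had an unadjusted p under 0.05.

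The median log2 fold change of the 9 enzymes was -0.38 at week 1, -0.43, -0.33 and -0.38 at weeks 2, 3 and 4, -0.73 at week 5 and -0.68 at week 6. Over all tested genes it lay between -0.053 and 0.021 in these comparisons. Counted without a test, all diet libraries of the week lay below all 5 normal-diet libraries for 5 enzymes at week 1, where 2.85% of tested genes did so. The count was 2 at week 2, 3 at week 3 and 3 at week 4, with 3.77%, 3.19% and 6.65% of tested genes. At week 5 it was 8, with 18.2% of tested genes, and at week 6 it was 4, with 10.6%.

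**Figure D2:**
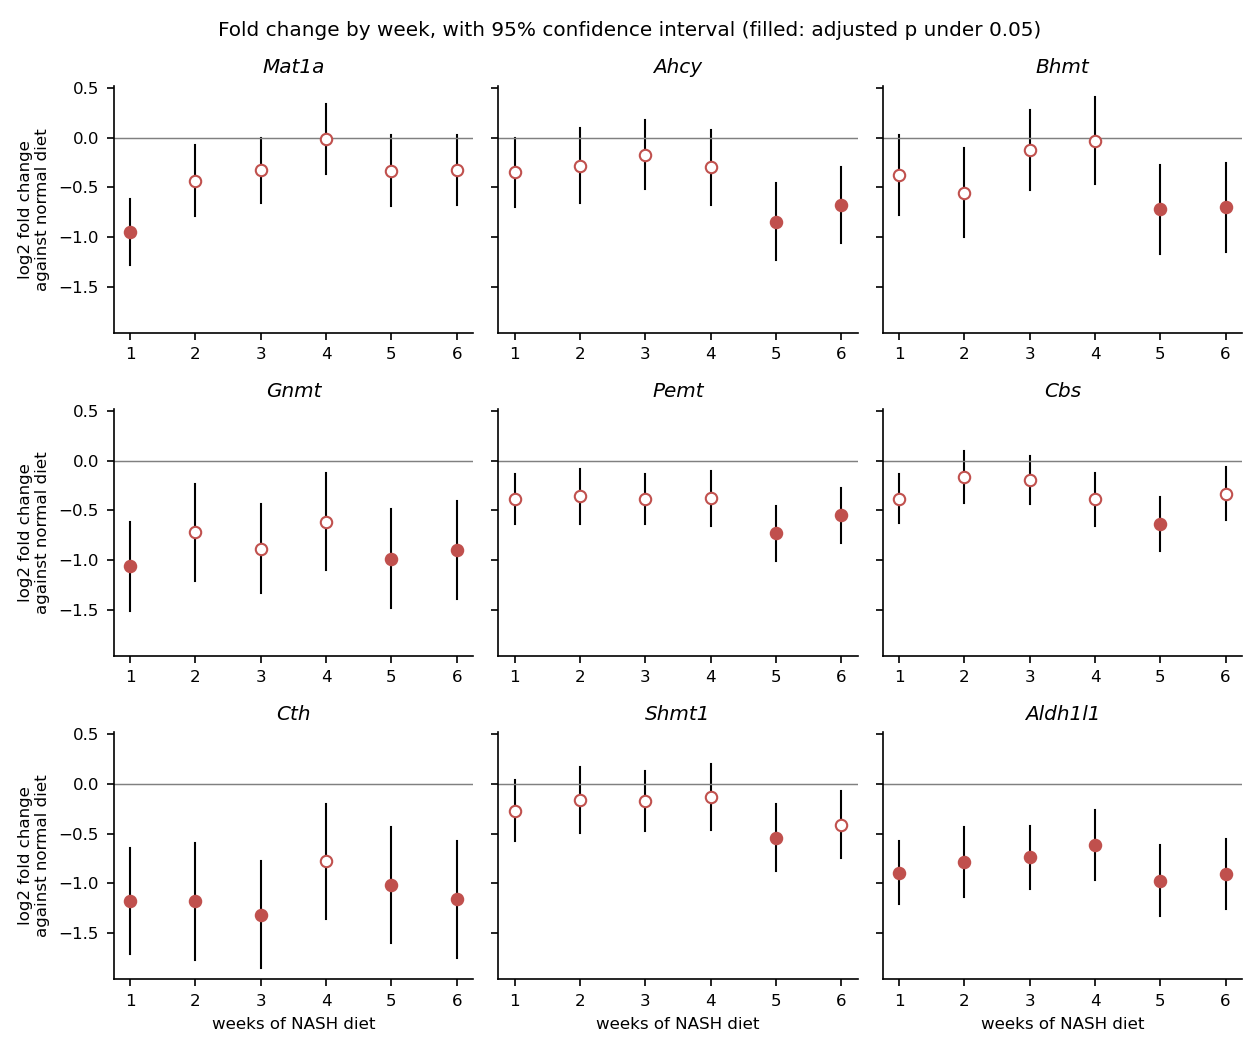
Log2 fold change of each enzyme against normal diet at weeks 1 to 6, with 95% confidence intervals from edgeR's fit; filled points were called at an adjusted p under 0.05. Aldh1l1 is filled at all 6 weeks, Mat1a at week 1 only, and at week 5 all but Mat1a are filled.

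Scaling to the hepatocyte markers left the week 1 count as it was and ended most of the calls of weeks 5 and 6. With libraries scaled to the geometric mean of the 8 hepatocyte markers, an alternative chosen after seeing the data, the week 1 count was 4 of 9 with the same 4 genes, and Mat1a stood at -0.80. Under that scaling 1 of 9 was called at week 5 and 1 at week 6, in both cases Aldh1l1, at -0.38 and -0.41. Of the week 5 calls that ended, Gnmt stood at -0.40, Cth at -0.43, Ahcy at -0.25, Pemt at -0.15, Bhmt at -0.13, Cbs at -0.049 and Shmt1 at 0.044. Of those of week 6, Cth stood at -0.65, Gnmt at -0.40, Bhmt at -0.19, Ahcy at -0.17 and Pemt at -0.055. Over all tested genes that scaling called 6483 at week 5, most of them higher, and 5364 at week 6. Some of the 8 markers were themselves called: 5 of 8 were called lower at week 5, with a median log2 fold change of -0.58, and 4 at week 6, with -0.45. The shares of all tested genes called lower in these weeks were 16.3% and 10.5%, with medians of -0.053 and -0.047. At week 1 none of the 8 was called by edgeR, though 4 had an unadjusted p under 0.05 and DESeq2 called 2, and their median was -0.21. With the marker score of other cells as a term in the model, 3 of 9 enzymes were called at week 1 (Mat1a, Gnmt and Aldh1l1), and none at weeks 2 to 6, where 3, 4, 1, 2 and 3 had an unadjusted p under 0.05. Few genes of any kind were called in that model: 51, 11 and 24 of 11869 tested at weeks 4, 5 and 6. Without the score those counts were 983, 4197 and 3175. Among weeks 2 to 6, the changes of Gnmt and Cth kept most of their size in that model where the fit without the score had called them. Gnmt was -1.11 at week 5 and -1.01 at week 6 (SE 0.45 and 0.41), and Cth -1.13, -1.27, -0.89 and -1.04 at weeks 2, 3, 5 and 6 (SE 0.34, 0.30, 0.54 and 0.50). Each of these SEs was larger than in the fit without the score. Aldh1l1 lay between -0.66 and -0.43 at weeks 2 to 6, while Ahcy and Bhmt turned to 0.17 and 0.12 at week 5. That score did not overlap between normal diet and weeks 4, 5 and 6, so the score and the diet cannot be told apart there. With total counts as the only scaling, 5 of 9 were called at week 5 and 2 at week 6. Of all tested genes, too, fewer were called lower under it than with TMM in both weeks, as given below. In fits of the 2 compared groups alone 3, 8 and 5 were called at weeks 1, 5 and 6, and none at weeks 2 to 4, where 5, 4 and 5 had an unadjusted p under 0.05. Fewer of all tested genes were called in those fits too at weeks 2, 3, 4 and 6. The changes themselves moved little in those fits: Cth was -1.17 and -1.30 at weeks 2 and 3, and Aldh1l1 -0.78, -0.72 and -0.58 at weeks 2, 3 and 4. With normal-diet libraries 1 and 5 left out, those of lowest score, the counts for weeks 1 to 6 were 4, 0, 1, 0, 8 and 4; at weeks 2 and 4, 5 and 5 had an unadjusted p under 0.05.

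Mat1a encodes the liver form of methionine adenosyltransferase and was the 1 enzyme of 9 for which a difference among the weeks of diet was called. The 5 normal-diet libraries had 1923, 2848, 2838, 2408 and 3747 CPM and the 4 week 1 libraries 1269, 1526, 1302 and 1614 CPM. Every week 1 library lay below every normal-diet library, and the change was -0.95 ± 0.16 on the log2 scale (± SE here and for all log2 fold changes), or 48.1% lower (adjusted p = 0.00114, 95% interval -1.28 to -0.62), a call that held without any single library. The libraries of week 2 had 1987, 1897 and 2231 CPM and those of week 3 had 1974, 1925, 2491 and 2372. At week 4 they had 2253, 2890 and 3012 CPM, inside the normal-diet range in all 3. Levels were 1850, 2252 and 2450 CPM at week 5 and 2190, 2672 and 1724 at week 6, overlapping normal diet.

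By group mean, Mat1a stood highest on normal diet (2753 ± 673 CPM, SD, n = 5) and at week 4 (2718 ± 407, n = 3), then at weeks 6, 3, 5 and 2, and lowest at week 1 (1428 ± 169, n = 4). Neighbours in this order differed by less than the larger of their SDs, apart from week 4 over week 6 and week 2 over week 1. None of weeks 2 to 6 was called: the log2 fold changes against normal diet were -0.43, -0.33, -0.018, -0.33 and -0.33, with adjusted p from 0.139 at week 5 to 0.970 at week 4; without normal-diet library 1 week 5 was called (-0.44, adjusted p = 0.0442). Compared directly, week 6 was higher than week 1 by 0.62 ± 0.18 (adjusted p = 0.0185), with all 3 week 6 libraries above all 4 of week 1. Mat1a was the 1 member of 9 called in that comparison, in which 11.5% of tested genes were called higher and the libraries of 15.3% lay apart in that direction. It was also the 1 member called in the joint test of any difference among the 6 weeks (adjusted p = 0.00920), a test that called 23.2% of tested genes. The rise from week 1 to week 6 rested on single libraries: without week 6 library 2 it was 0.45 (adjusted p = 0.117), and without week 1 library 1 it was 0.57 (adjusted p = 0.0505). Scaled to the hepatocyte markers it was 0.98.

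Ahcy, which clears S-adenosylhomocysteine, was called lower at weeks 5 and 6. Its normal-diet libraries had 194, 147, 178, 138 and 264 CPM, and library 5 stood above the others. At week 5 the libraries had 99.8, 111 and 95.9 CPM and those of week 6 had 114, 105 and 124 CPM, all below the lowest normal-diet library. The log2 fold change was -0.85 ± 0.19 at week 5 (adjusted p = 9.83e-04) and -0.68 ± 0.19 at week 6 (adjusted p = 0.00747). At weeks 1 to 4 the libraries ran from 109 to 189 CPM and overlapped normal diet, with log2 fold changes of -0.35, -0.29, -0.17 and -0.30, none called. The change over the mean of the 6 weeks, -0.44 ± 0.12, was not called without normal-diet library 5 (-0.26, adjusted p = 0.153), and that of week 6 was not called without normal-diet libraries 1 and 5 (-0.43, adjusted p = 0.0857).

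Bhmt, which returns homocysteine to methionine with betaine, was also called lower at weeks 5 and 6 and at no earlier week. It had 2092, 2241, 3282, 1753 and 3101 CPM in the normal-diet libraries, 1362, 1608 and 1563 at week 5 and 1829, 1422 and 1345 at week 6. The week 5 libraries lay below all normal-diet libraries, while 1 week 6 library overlapped them. Changes of -0.72 ± 0.22 at week 5 (adjusted p = 0.0117) and -0.70 ± 0.22 at week 6 (adjusted p = 0.0178) were called. The earlier weeks spanned 1132 to 3095 CPM with none called, and the week 4 change of -0.033 had a 95% interval of -0.47 to 0.41. Single libraries ended these calls: the week 5 call was lost without week 5 library 1 (adjusted p = 0.0553), and the week 6 call without normal-diet library 5 (adjusted p = 0.0598), week 6 library 2 (0.0658) or week 6 library 3 (0.0850).

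**Figure D3:**
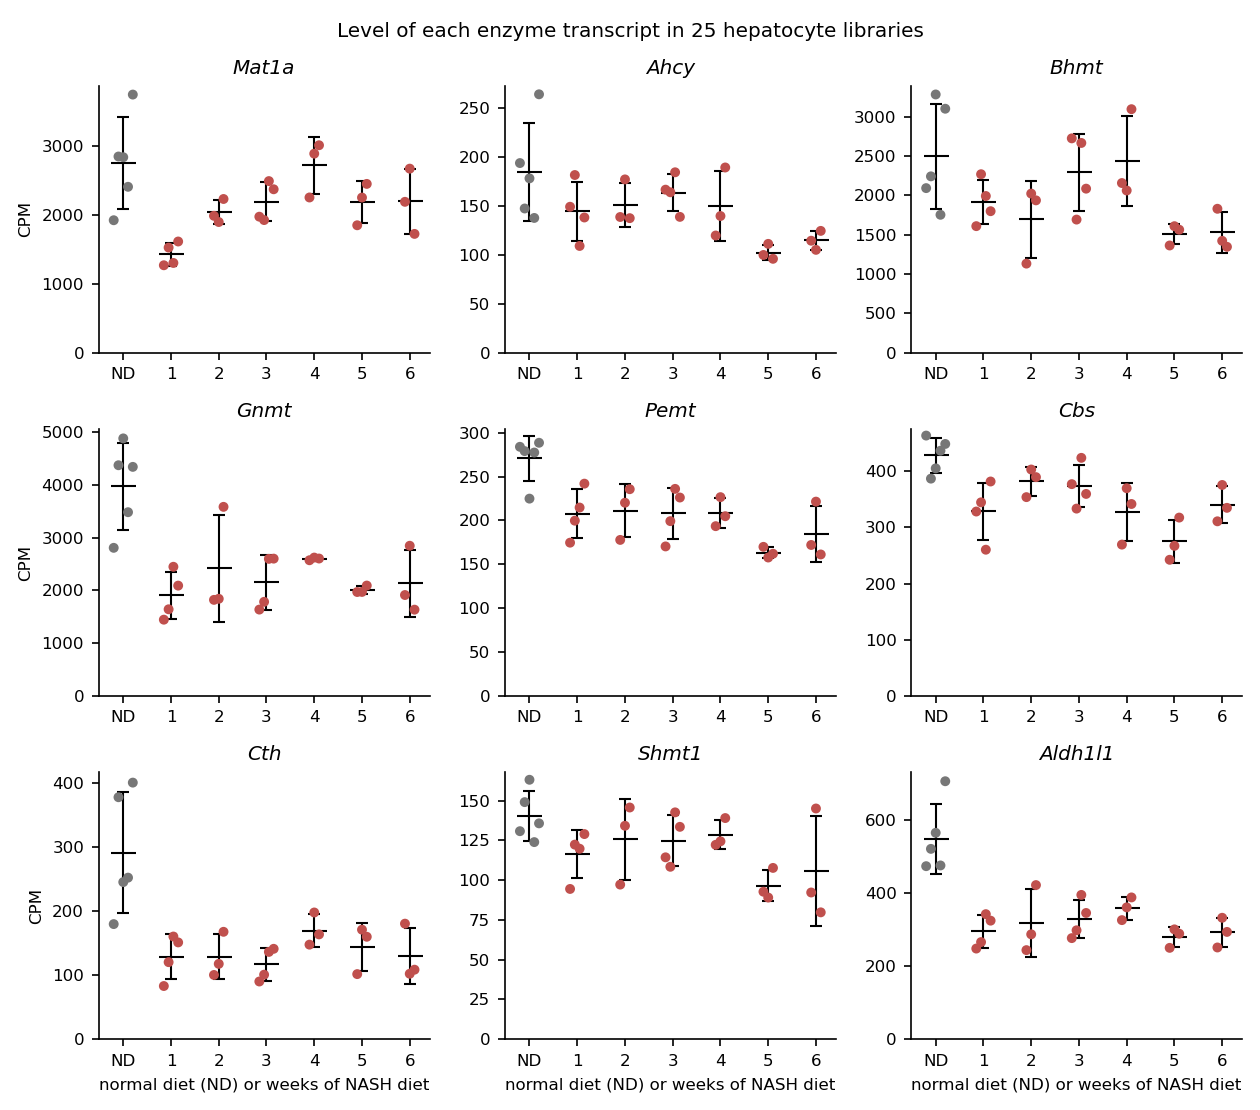
CPM of the 9 enzymes in all 25 libraries, 1 panel per gene with its own scale. The x axis gives normal diet (ND) and weeks of NASH diet. Points are libraries, horizontal lines are group means and capped vertical bars are the SD. Mat1a is lowest at week 1 and overlaps normal diet at weeks 2 to 6, while all 20 diet libraries of Aldh1l1 lie below its 5 normal-diet libraries.

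Of the 2 methyltransferases, Gnmt was called lower at weeks 1, 5 and 6 and Pemt at weeks 5 and 6. Gnmt, which uses up S-adenosylmethionine by making sarcosine from glycine, had 2809, 4375, 4885, 3485 and 4345 CPM on normal diet. Week 1 libraries had 1445, 1642, 2449 and 2092 CPM, all below the lowest normal-diet library, and the change was -1.06 ± 0.22 (adjusted p = 0.00904). Library values were 1821, 1842 and 3586 CPM at week 2 and 1637, 1784, 2599 and 2604 CPM at week 3. In both weeks the libraries split into low and high ones, and library 3 of week 2 lay within the normal-diet range. The changes of -0.72 ± 0.24 at week 2 (adjusted p = 0.195) and -0.88 ± 0.22 at week 3 (adjusted p = 0.0501) were not called, although the week 3 libraries all lay below normal diet; DESeq2 called week 3 (adjusted p = 0.00731). Without library 3, week 2 was called (-1.12, adjusted p = 0.0249). Week 4 had 2573, 2624 and 2606 CPM, the tightest group of the course, with an uncalled change of -0.61 ± 0.24. Week 5 had 1970, 1972 and 2093 CPM and week 6 had 1913, 2848 and 1635.

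Gnmt fell by 0.98 at week 5 (SE 0.24, adjusted p = 0.00250) and by 0.90 at week 6 (SE 0.24, adjusted p = 0.00657), although 1 week 6 library overlapped normal diet. Over the mean of the 6 weeks the change was -0.86 ± 0.15, or 44.9% lower (adjusted p = 4.84e-04). In the order of group means, normal diet (3980 ± 825 CPM, SD, n = 5) stood above the 6 diet groups by more than the SDs, and the diet groups, from 2601 ± 25.7 CPM at week 4 to 1907 ± 451 at week 1, differed from their neighbours by less. The week 1 call was lost without week 1 library 1 (adjusted p = 0.0560) or library 2 (0.0540), and the week 6 call without week 6 library 3 (0.0503).

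Pemt had 284, 279, 225, 277 and 288 CPM in the normal-diet libraries, 170, 158 and 162 in those of week 5 and 172, 221 and 161 in those of week 6. Neither late week overlapped normal diet, and the changes were -0.73 ± 0.14 (adjusted p = 1.89e-04) and -0.55 ± 0.13 (adjusted p = 0.00333). At weeks 1 to 4 its log2 fold changes lay between -0.38 and -0.36, in a narrow range, and none was called; 4 of the 5 normal-diet libraries had more than every diet library.

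Of the 2 transsulfuration enzymes, Cth was called lower at 5 of the 6 weeks and Cbs at 1. Cth is the cystathionine gamma-lyase that releases cysteine, and its normal-diet libraries were widely spread at 180, 378, 245, 252 and 400 CPM. Week 1 libraries had 82.8, 120, 160 and 151 CPM and week 2 libraries 100, 117 and 167 CPM, all below the lowest normal-diet library. Week 3 libraries had 89.9, 101, 136 and 141 CPM, the lowest group, and a log2 fold change of -1.31 ± 0.26 (adjusted p = 0.00994), or 59.8% lower. In week 4 the libraries had 147, 198 and 163 CPM, in week 5 they had 101, 171 and 160 and in week 6 180, 102 and 108. Library 2 of week 4 and library 1 of week 6 overlapped normal diet. The changes were -0.78 ± 0.28 at week 4, which was not called (adjusted p = 0.0856), -1.01 ± 0.28 at week 5 (adjusted p = 0.00741) and -1.16 ± 0.28 at week 6 (adjusted p = 0.00407).

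Normal diet had the highest Cth mean, 291 ± 94.2 CPM (SD, n = 5), and the 6 diet groups, from 169 ± 25.6 at week 4 down to 117 ± 25.4 at week 3, differed from their neighbours by less than their SDs. Over the mean of the 6 weeks Cth changed by -1.10 ± 0.17 (adjusted p = 2.42e-04), with a 95% interval of -1.46 to -0.74. The early calls rested on single libraries. The week 1 call was lost without week 1 library 1 or 2 (adjusted p = 0.0837 and 0.0795) or normal-diet library 2 or 5 (0.0522 and 0.0683), and the week 2 call, at an adjusted p of 0.0488, without any 1 of 6 libraries, with values from 0.0516 to 0.340. The week 3 call was lost without week 3 library 1 (0.0568) or 2 (0.0549). Its sign did not change in any of these.

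Cbs, which joins homocysteine to serine, was called lower at week 5 only. The normal-diet libraries were close together at 464, 387, 405, 437 and 449 CPM, and those of week 5 had 242, 267 and 318 CPM. The 2 groups did not overlap and the change was -0.64 ± 0.13 (adjusted p = 5.16e-04). The week 1 libraries, at 328, 345, 260 and 382 CPM, also lay below all of normal diet, as did those of week 4, at 269, 370 and 342, and week 6, at 311, 376 and 335. None of these was called, with changes of -0.38 ± 0.12 (adjusted p = 0.135), -0.39 ± 0.13 (0.0606) and -0.33 ± 0.13 (0.0590); week 6 was called without normal-diet library 2 (0.04995) or week 6 library 2 (0.0421). Weeks 2 and 3 overlapped normal diet, with changes of -0.16 and -0.20.

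Of the 2 folate enzymes, Aldh1l1 was called lower at all 6 weeks and Shmt1 at 1. Aldh1l1, the 10-formyltetrahydrofolate dehydrogenase of the cytosol, had 473, 520, 564, 475 and 705 CPM on normal diet. Week 1 libraries had 248, 265, 342 and 324 CPM, those of week 2 had 243, 286 and 421 and those of week 3 had 276, 297, 394 and 345. Week 4 libraries had 325, 360 and 387 CPM, those of week 5 had 249, 300 and 288 and those of week 6 had 251, 332 and 293. All 20 diet libraries lay below all 5 normal-diet libraries, which held for 1 of the 9 enzymes and for 0.666% of tested genes. The log2 fold changes against normal diet were -0.89 ± 0.15 at week 1 (adjusted p = 0.00144), -0.79 ± 0.17 at week 2 (0.0172) and -0.74 ± 0.15 at week 3 (0.0132). They were -0.61 ± 0.17 at week 4 (adjusted p = 0.0276), -0.97 ± 0.17 at week 5 (1.19e-04) and -0.91 ± 0.17 at week 6 (3.59e-04).

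Normal diet, at 547 ± 95.8 CPM (SD, n = 5), was the highest Aldh1l1 group by more than the SDs, and the diet groups, from 358 ± 31.1 CPM at week 4 to 279 ± 26.4 at week 5, differed from their neighbours in that order by less. No difference among the weeks was called (adjusted p = 0.561). The mean of the 6 weeks was -0.82 ± 0.11, or 43.3% lower (adjusted p = 1.36e-05). The calls at weeks 2, 3 and 4 were lost without normal-diet library 5, the highest library (adjusted p = 0.0517, 0.0533 and 0.0678). Each was also lost without either of 2 libraries of its own week: libraries 1 and 2 of week 2 (adjusted p = 0.239 and 0.101), of week 3 (0.0798 and 0.0770) and of week 4 (0.168 and 0.0892). Those at weeks 1, 5 and 6 held without any single library.

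Shmt1, the cytosolic serine hydroxymethyltransferase, had 131, 149, 163, 124 and 136 CPM in the normal-diet libraries and 92.8, 89.1 and 108 CPM in those of week 5. The week 5 libraries lay below normal diet and the change was -0.54 ± 0.16 (adjusted p = 0.0117), a call lost without week 5 library 2 (0.0600). At week 6 its libraries were 92.3, 145 and 79.8 CPM, library 2 within the normal-diet range, and the change of -0.41 ± 0.16 was not called (adjusted p = 0.0636). Without that library it was -0.71 (adjusted p = 0.00214). At weeks 1 to 4 the log2 fold changes lay between -0.27 and -0.13, none called.

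Of the genes around these enzymes, few were called at weeks 1 to 4 and more at weeks 5 and 6. Of 63 genes in 6 lists of neighbouring pathways, 60 were tested; Mthfd2l, Aldh1l2 and Amt had too few counts. Of the 60, 2 were called lower at week 1 (Got1 and As3mt), 1 at week 2 (As3mt), 2 at week 3 (As3mt and Mthfd1), 3 at week 4 (Csad, Chdh and Odc1), 25 at week 5 and 16 at week 6. The shares of all tested genes called lower were 0.977%, 0.657%, 0.607%, 2.86%, 16.3% and 10.5% at weeks 1 to 6. At week 5, 2 were called higher (Mtr and Sat1), against 19.1% of tested genes, and Sat1 alone at week 6, against 16.3%. The median log2 fold change of the 60 was -0.16 at week 1 and -0.32 at week 5, nearer to 0 than the medians of the 9 enzymes. Over the mean of the weeks 17 were called lower and 1 higher, where 8.87% of tested genes were called lower and 11.1% higher.

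Downstream of Cth, 6 of 11 cysteine, sulfide and glutathione enzymes were called lower over the mean of the weeks, 7 at week 5 and 6 at week 6, where 8.87%, 16.3% and 10.5% of tested genes were. Csad, which makes hypotaurine, the precursor of taurine, from cysteine sulfinate, had a normal-diet mean of 363 ± 114 CPM (SD, n = 5), against 311 ± 54.5 at week 1 (n = 4) and 70.5 ± 2.11 at week 4 (n = 3), a week 4 log2 fold change of -2.36 ± 0.32 (adjusted p = 1.75e-04). Got1, which takes the amino group of cysteine sulfinate and aspartate, was called at week 1, from 294 ± 86.8 to 114 ± 12.7 CPM, a change of -1.37 ± 0.26 (adjusted p = 0.00465). Over the mean of the weeks Ethe1, a sulfide oxidation enzyme, changed by -0.50 ± 0.11 and Tst, a thiosulfate sulfurtransferase, by -0.55 ± 0.13, both called. In the choline and betaine list 4 of 10 were called lower over the mean of the weeks, against the same 8.87% of tested genes. They were Chdh, which starts betaine synthesis (-0.64 ± 0.12), Aldh7a1 (-0.33), Pcyt2 of phosphatidylethanolamine synthesis (-0.32) and Sardh, which oxidises the sarcosine that Gnmt makes (-0.28). At week 5 Chdh stood at 10.3 ± 0.956 CPM against 24.1 ± 2.58 on normal diet.

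Of 17 other folate and glycine cleavage genes tested, 3 were called lower over the mean of the weeks, where 8.87% of tested genes were: Mthfd1, the trifunctional folate enzyme (-0.53 ± 0.084, adjusted p = 1.62e-04), Slc46a1, a folate carrier (-0.31), and Dld, shared with the glycine cleavage system (-0.23). Of 7 other methyltransferases, As3mt, which methylates arsenic, changed by -0.77 ± 0.13 and Nnmt, which methylates nicotinamide, by -0.62 ± 0.19, both called. As3mt was called at week 1 (-0.99 ± 0.19, adjusted p = 0.00418). In the methionine cycle list 1 of 7 was called over the mean of the weeks, Ahcyl1 (-0.22 ± 0.076), a relative of Ahcy. Mat2a, the form of methionine adenosyltransferase found in most tissues, had 102 ± 8.87 CPM in the normal-diet group and 119 ± 6.73 after 1 week, when Mat1a was lowest, and its change of 0.23 ± 0.14 was not called (adjusted p = 0.616). In the polyamine and methionine salvage list, Sat1, which acetylates spermidine and spermine, was called higher (0.69 ± 0.23) and Odc1, which makes putrescine, lower (-0.44 ± 0.15), of 8 tested. Among all tested genes, 11.1% were called higher and 8.87% lower over the same mean of the weeks. Sat1 is also expressed in immune cells, and it was called higher at weeks 5 and 6 (1.57 and 1.20), when markers of other cells were also called higher; their part in that result was not tested.

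**Figure D4:**
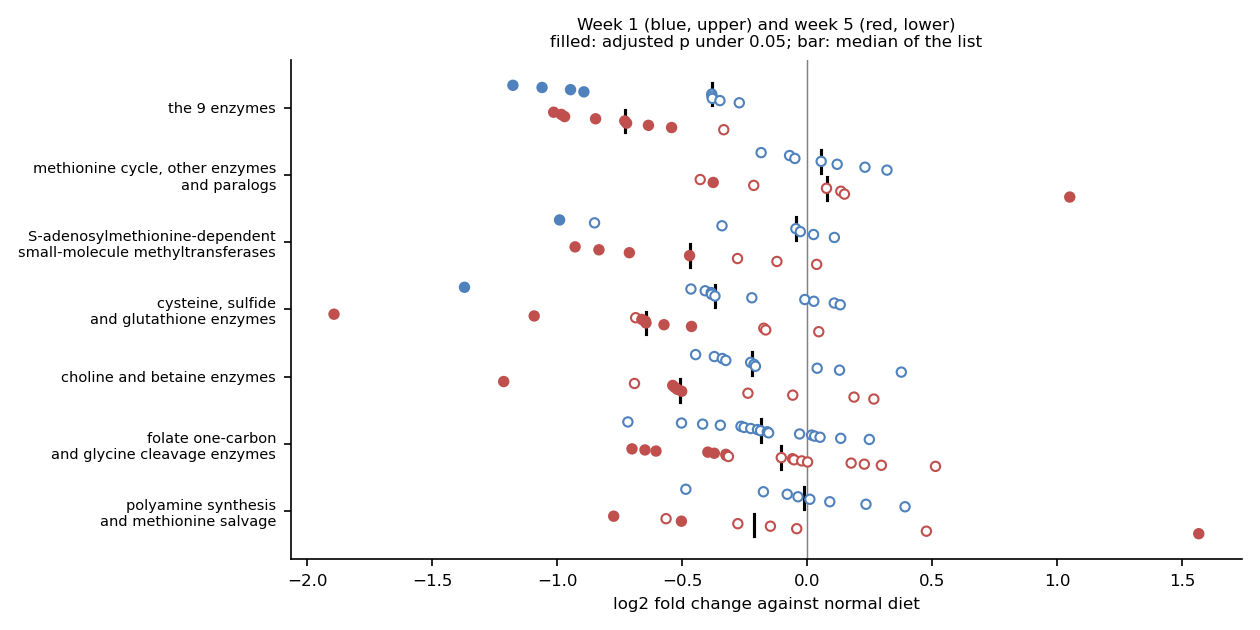
Log2 fold change against normal diet of the 9 enzymes and of the 6 lists of neighbouring genes at week 1 (blue, upper row of each list) and week 5 (red, lower row); points are genes, filled where called, and bars are medians. At week 1 the 9 enzymes hold 4 filled points and the 60 neighbouring genes 2; at week 5 the filled points are 8 and 27.

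The genes whose course was nearest to each enzyme were found by the root mean square difference of log2 CPM, each gene centred on its own mean, over the 25 libraries and among 6203 genes whose mean reached 10 CPM. For Mat1a they were Tm6sf2 at 0.227 and Gstt1 at 0.239, where the median gene stood at 0.447. For Gnmt they were Slc25a1 at 0.221 and Gls2 at 0.244, and for Cth Gls2 at 0.297 and Gstm5 at 0.332, so that Gls2, a liver glutaminase, came up for both. Aldh1l1 had Qdpr at 0.164 and Ethe1 at 0.190. Qdpr is the dihydropteridine reductase, and Ethe1 is one of the sulfide enzymes above. Ahcy had Slc25a13 at 0.140 and Abat at 0.146, and Bhmt Ankrd33b at 0.240 and Slc23a1 at 0.243. The smallest distances were those of 3 enzymes: Cbs had S100a1 at 0.105 and Atp5j2 at 0.122, Pemt Gjb1 at 0.106 and Galt at 0.107 and Shmt1 Atp5k at 0.104 and Mettl7b at 0.112. The levels of these 3 also varied least over the libraries. Their median gene was nearest too, at 0.311 for Cbs, 0.328 for Pemt and 0.331 for Shmt1. These distances are descriptions, and the libraries share their depth and their content of other cells.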

How the data were processed

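Polyadenylated RNA of sorted hepatocytes was sequenced as 3′ tags in 25 libraries. The deposited values are raw counts per gene symbol; reads were checked with FastQC, trimmed with cutadapt and aligned with STAR 2.7.1a to GRCm39, per the submitters' processing notes, and the counting of reads shared by related genes is a step not given in the sources used here. Genes were filtered with filterByExpr (11869 kept, holding at least 99.8% of counts), scaled by TMM (factors 0.864 to 1.16) and fitted with edgeR 4.0.16's robust quasi-likelihood model of 7 groups (R 4.3.3, 18 residual degrees of freedom), with Benjamini-Hochberg adjustment over all tested genes. The script was tested on simulated data. The members and lists were chosen with earlier results of these data known. All 9 enzymes were named. From the lists, up to 4 called genes per list with the smallest p over the mean of the weeks were named, and 2 nearest genes per enzyme; Mat2a and results of single weeks were added after their values were seen. Intervals are at 95%. Alternatives were DESeq2 1.42.0, other scalings and filters, a replicate block, pairwise fits, leaving out each library, and 3 chosen after seeing the data: the marker score of other cells as a term, scaling to hepatocyte markers, and leaving out normal-diet libraries 1 and 5. The column names carry another diet abbreviation than the sample titles, and were matched by week and number.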

Additional observations from a re-analysis of the deposited data

Results flagged for a closer look

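Pemt in normal-diet library 3 had 225 CPM, while the other 4 normal-diet libraries had 277 to 288; the gap to the nearest was 0.825 of the whole range. It was the 1 library that stood apart among 27 groups of an enzyme looked at, and chance alone marks about 5% of groups. Without this library the week 4 change of Pemt was -0.44 (adjusted p = 0.0430, edgeR) against -0.38 with it, and the call at week 4 was gained.

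The level of Mat1a was higher at week 6 than at week 1 by 0.62 on the log2 scale in a direct test (SE 0.18, edgeR adjusted p = 0.0185), with all 3 week 6 libraries above all 4 week 1 libraries. The other 8 enzymes were not called in that comparison, with log2 differences from -0.33 for Ahcy to 0.16 for Gnmt. Of all tested genes 11.5% were called higher in it, and the libraries of 15.3% lay apart in that direction. The Mat1a call was lost without 1 of the week 6 libraries (0.45, edgeR adjusted p = 0.117). It was also lost without 1 of the week 1 libraries (0.57, edgeR adjusted p = 0.0505).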

How the results depend on the processing

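The changes of the 9 enzymes at week 1 kept their direction under all alternatives run. No value whose sign turned was called under that alternative. The calls that end with 1 library are given in the text, and the cause was not tested. Scaling moved the whole table: with total counts alone the median of all tested genes at week 5 was 0.28 against -0.053 with TMM, and scaled to hepatocyte markers it was 0.53; genes called higher and lower with TMM, against total counts, were 26 and 116 against 69 and 82 at week 1, 29 and 72 against 76 and 55 at week 3, 644 and 339 against 1033 and 150 at week 4, 2268 and 1929 against 3790 and 364 at week 5, 1929 and 1246 against 3269 and 229 at week 6, 1318 and 1053 against 2497 and 295 for the mean and 1363 and 593 against 1791 and 184 for week 6 against week 1. Scaled to hepatocyte markers, 6333 were called higher and 150 lower at week 5. The lowest count of an enzyme in any library was 518 (Cth in week 1 library 1), and each group has 3 to 5 libraries. Leaving out each library in turn, members called ranged from 2 to 4 (week 1), 0 to 2 (week 2), 0 to 3 (week 3), 0 to 2 (week 4), 7 to 9 (week 5), 4 to 7 (week 6), 5 to 9 (the mean of the weeks), 0 to 1 (week 6 against week 1), 1 to 2 (the joint test), and all genes called from 93 to 157 (week 1), 44 to 123 (week 2), 61 to 132 (week 3), 155 to 1360 (week 4), 3139 to 4178 (week 5), 2439 to 3199 (week 6), 1573 to 2577 (the mean of the weeks), 1227 to 1993 (week 6 against week 1), 1876 to 2916 (the joint test). Calls were gained without 1 library for Gnmt (week 2, 1 such library, adjusted p 0.0249), Gnmt (week 3, 2 such libraries, adjusted p 0.0240 to 0.0461), Pemt (week 4, 1 such library, adjusted p 0.0430), Mat1a (week 5, 1 such library, adjusted p 0.0442), Cbs (week 6, 2 such libraries, adjusted p 0.0421 to 0.04995), Shmt1 (week 6, 1 such library, adjusted p 0.00214), Shmt1 (the mean, 2 such libraries, adjusted p 0.0118 to 0.0466), Ahcy (the joint test, 3 such libraries, adjusted p 0.0381 to 0.0493), Bhmt (the joint test, 1 such library, adjusted p 0.0460) and Shmt1 (the joint test, 1 such library, adjusted p 0.0353). The call of Bhmt over the mean of the weeks was lost without any 1 of 5 libraries (adjusted p 0.05002 to 0.194). Below, unadjusted counts are at p under 0.05. The sign of these uncalled changes turned in that series: -0.26 to 0.0032 for Ahcy (week 3), -0.26 to 0.086 for Bhmt (week 4), -0.12 to 0.13 for Mat1a (week 4), -0.28 to 0.17 for Cth (week 6 against week 1), -0.046 to 0.13 for Cbs (week 6 against week 1), -0.12 to 0.096 for Aldh1l1 (week 6 against week 1), -0.11 to 0.32 for Gnmt (week 6 against week 1) and -0.44 to 0.024 for Shmt1 (week 6 against week 1). With DESeq2's size factors, members called came to 1 (week 2), and the sign turned to 0.015 for Aldh1l1 (week 6 against week 1). With total counts as the only scaling, members called came to 1 (week 2), 0 with 2 unadjusted (week 4), 5 (week 5), 2 (week 6) and 4 (the mean), and the sign turned to 0.15 for Mat1a (week 4), 0.13 for Bhmt (week 4), 0.035 for Shmt1 (week 4), 0.012 for Mat1a (week 5), 0.0094 for Pemt (week 6 against week 1), 0.036 for Shmt1 (week 6 against week 1) and 0.16 for Aldh1l1 (week 6 against week 1). With no filter, members called came to 1 (week 2) and 2 (the joint test), and the sign turned to 0.012 for Mat1a (week 4) and -0.012 for Cth (week 6 against week 1). With the filter at 5 CPM in 3 libraries, the sign turned to 0.0019 for Mat1a (week 4) and 0.025 for Aldh1l1 (week 6 against week 1). With DESeq2, members called came to 3 (week 4) and all genes called to 265 (week 1), 198 (week 2) and 217 (week 3). There the sign turned to 0.015 for Aldh1l1 (week 6 against week 1). With the 2 compared groups alone, members called came to 0 with 5 unadjusted (week 2), 0 with 4 unadjusted (week 3) and 0 with 5 unadjusted (week 4) and all genes called to 58 (week 2), 45 (week 3), 243 (week 4) and 2094 (week 6). There the sign turned to 0.012 for Mat1a (week 4). Without normal-diet libraries 1 and 5, members called came to 0 with 5 unadjusted (week 2), 1 (week 3), 0 with 5 unadjusted (week 4) and 4 (the mean) and all genes called to 84 (week 1), 51 (week 2), 54 (week 3), 198 (week 4) and 698 (the mean). There the sign turned to 0.081 for Ahcy (week 3), 0.010 for Mat1a (week 4) and 0.0070 for Bhmt (week 4). Scaled to hepatocyte markers, members called came to 1 (week 2), 0 with 1 unadjusted (week 4), 1 (week 5), 1 (week 6), 3 (the mean) and 2 (week 6 against week 1) and all genes called to 157 (week 3), 1702 (week 4), 6483 (week 5), 5364 (week 6), 3991 (the mean), 3018 (week 6 against week 1) and 4590 (the joint test). There the sign turned to 0.023 for Bhmt (week 3), 0.24 for Mat1a (week 4), 0.22 for Bhmt (week 4), 0.13 for Shmt1 (week 4), 0.26 for Mat1a (week 5), 0.044 for Shmt1 (week 5), 0.18 for Mat1a (week 6), 0.16 for Cbs (week 6), 0.087 for Shmt1 (week 6), 1.0e-04 for Shmt1 (the mean), 0.022 for Ahcy (week 6 against week 1), 0.031 for Bhmt (week 6 against week 1), 0.18 for Pemt (week 6 against week 1), 0.21 for Shmt1 (week 6 against week 1) and 0.33 for Aldh1l1 (week 6 against week 1). With the marker score as a term, members called came to 0 with 3 unadjusted (week 2), 0 with 4 unadjusted (week 3), 0 with 1 unadjusted (week 4), 0 with 2 unadjusted (week 5), 0 with 3 unadjusted (week 6), 0 with 4 unadjusted (the mean), 0 with 1 unadjusted (week 6 against week 1) and 0 with 2 unadjusted (the joint test) and all genes called to 48 (week 2), 51 (week 4), 11 (week 5), 24 (week 6), 59 (the mean), 0 with 1079 unadjusted (week 6 against week 1) and 0 with 811 unadjusted (the joint test). There the sign turned to 0.14 for Ahcy (week 2), 0.0020 for Cbs (week 2), 0.19 for Ahcy (week 3), 0.14 for Bhmt (week 3), 0.23 for Mat1a (week 4), 0.30 for Ahcy (week 4), 0.45 for Bhmt (week 4), 0.069 for Shmt1 (week 4), 0.088 for Mat1a (week 5), 0.17 for Ahcy (week 5), 0.12 for Bhmt (week 5), 0.046 for Mat1a (week 6), 0.23 for Ahcy (week 6), 0.046 for Bhmt (week 6), 0.039 for Cbs (week 6), 0.16 for Ahcy (the mean), 0.060 for Bhmt (the mean), 0.29 for Ahcy (week 6 against week 1), 0.20 for Bhmt (week 6 against week 1), 0.071 for Shmt1 (week 6 against week 1) and 0.17 for Aldh1l1 (week 6 against week 1). With the replicate block, members called came to 1 (week 2), 5 (the mean) and 3 (the joint test) and all genes called to 59 (week 2), 335 (week 4) and 1399 (the mean). There the sign turned to 0.15 for Mat1a (week 4), 0.0030 for Bhmt (week 4) and 0.011 for Aldh1l1 (week 6 against week 1). Same-numbered libraries did not deviate together: correlations over 66 pairs ran from -0.44 to 0.41, 14 of them over 0.1, and 9 of 25 libraries had their best match outside the group under their own number, so the numbers were not taken as pairs; the replicate block left 8 members called at week 5 and 6 at week 6.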

Other observations

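A few neighbouring genes called at week 5 are given here, chosen after their values were seen. Mpst, a mercaptopyruvate sulfurtransferase of cysteine breakdown, changed by -1.09 ± 0.23 (log2, ± SE) at week 5 (edgeR adjusted p = 8.20e-04), from 57.6 ± 9.94 to 27.0 ± 3.71 CPM (SD, n = 5 and 3). Ftcd, which passes the formimino group of histidine breakdown to folate, changed by -0.70 ± 0.22 (adjusted p = 0.0167), from 473 ± 101 to 291 ± 80.9 CPM. Mtr, the methionine synthase that uses folate in place of betaine, was called higher at week 5, 1.05 ± 0.32 (adjusted p = 0.0121), at a low level of 2.74 ± 0.631 CPM on normal diet and 5.75 ± 0.556 at week 5. Csad, of taurine synthesis, was called lower at each of weeks 4, 5 and 6 (-2.36, -1.89 and -1.40), and it was also called in the joint test of any difference among the 6 weeks. That test called 6 of the 60 neighbouring genes and 23.2% of tested genes. Markers of other liver cells were higher in the same weeks, and their part in these results was not tested.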
